A study of Mus musculus with 4 samples.

Results

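The regions described here were the broad SMAD4-bound regions of mouse alveolar macrophages (AMs), which reside in the airspaces of the lung. They were chosen by their length: peaks of both SMAD4 libraries sharing 1 bp or more were merged, and merged intervals that held a peak of each library and spanned 800 bp or more were kept. Of 10964 shared regions, 1047 were kept, after 1 very long interval over ribosomal repeat copies on chromosome 17 was left out. This was 9.55% of the remaining 10963 shared regions, and the other 9916 were shorter. Because the rule used peak widths, and peak width and peak height come from the same immunoprecipitation, lengths, folds and fragment numbers are given below as a description without a test.

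Cells came from bronchoalveolar lavage of adult wild-type C57BL/6J mice that received no treatment, and were fixed and sorted before HT-ChIPmentation. This is a chromatin immunoprecipitation (ChIP) in which the transposase Tn5 adds sequencing adapters on the beads. The series has 2 libraries of each kind, SMAD4 and input, and only the SMAD4 libraries have peak lists. All samples share genotype and tissue, so no condition could be compared. The labels do not say whether the 2 SMAD4 libraries came from separate mice, and no library was made from cells that lack SMAD4.

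SMAD4 is the common partner of the receptor-activated SMAD proteins. It enters the nucleus with them after TGFβ or bone morphogenetic protein (BMP) receptors are activated, and the complex binds short GTCT and GC-rich sequences with low affinity. In AMs, TGFβ made by the cells themselves is needed for their development and upkeep. PU.1, an ETS factor, and the C/EBP factors open macrophage enhancers, and SMAD complexes are known to bind at sites that such lineage factors have already opened.

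The DNA under 6 of these regions is shown to let their sequence content be read directly. Each is the 200-bp window around the mean summit (the position of the highest pileup) of both libraries, on the plus strand of mm10, taken from the RefSeq copy of that assembly. Capitals mark matches, on either strand, to any of the 14 sequence strings searched below. The first pair are the regions with the largest fold. The third is the strongest region near an AM marker gene, the next the strongest near a TGFβ pathway gene, then the strongest promoter region, and last the region with most C/EBP strings.
Lyz1, chr10:117301890-117302089: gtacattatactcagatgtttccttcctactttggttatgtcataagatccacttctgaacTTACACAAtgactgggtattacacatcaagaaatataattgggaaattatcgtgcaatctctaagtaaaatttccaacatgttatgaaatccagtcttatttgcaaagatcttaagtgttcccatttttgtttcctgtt
1700112H15Rik, chr1:184536465-184536664: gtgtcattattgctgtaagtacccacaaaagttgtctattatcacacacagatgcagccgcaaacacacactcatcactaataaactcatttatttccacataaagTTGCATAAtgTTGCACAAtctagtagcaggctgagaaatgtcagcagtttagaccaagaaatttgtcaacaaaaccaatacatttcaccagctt
Chil3, chr3:106172637-106172836: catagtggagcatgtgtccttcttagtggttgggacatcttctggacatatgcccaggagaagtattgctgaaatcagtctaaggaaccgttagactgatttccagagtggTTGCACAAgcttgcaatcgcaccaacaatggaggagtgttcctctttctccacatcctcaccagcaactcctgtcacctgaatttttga
Ski, chr4:155217225-155217424: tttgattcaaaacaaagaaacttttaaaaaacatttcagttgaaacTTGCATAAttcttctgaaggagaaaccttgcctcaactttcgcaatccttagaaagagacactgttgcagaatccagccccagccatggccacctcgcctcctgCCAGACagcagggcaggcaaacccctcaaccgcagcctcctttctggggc
Pparg, chr6:115421715-115421914: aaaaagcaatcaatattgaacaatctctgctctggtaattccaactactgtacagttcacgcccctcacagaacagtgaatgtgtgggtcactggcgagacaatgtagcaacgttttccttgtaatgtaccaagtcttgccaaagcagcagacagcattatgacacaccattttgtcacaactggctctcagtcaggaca
Lrrc40, chr3:158062281-158062480: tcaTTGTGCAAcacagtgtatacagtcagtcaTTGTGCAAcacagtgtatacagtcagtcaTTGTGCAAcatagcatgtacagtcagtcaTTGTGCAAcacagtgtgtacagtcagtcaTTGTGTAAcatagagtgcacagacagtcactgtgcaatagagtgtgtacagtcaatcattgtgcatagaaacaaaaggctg
The Lyz1, 1700112H15Rik, Chil3 and Ski windows each held the C/EBP string, a pair of them in 1700112H15Rik, and the Ski window also held the reverse complement of GTCTGG. The Pparg window held none of the 14 strings. The Lrrc40 window was a tandem repeat with 5 C/EBP strings, of 7 in the whole region. Repeat (soft-masked) sequence made up 92.5% of the Chil3 window, against a median of 10% over the broad windows. Lower case above does not mark repeats.

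Most broad regions held 1 peak in each library, and in 350 of 1047 that peak was 800 bp or longer in both. Lengths ran from 800 to 2582 bp with a median of 931 bp. Of the 1047, 360 (34.4%) reached 1000 bp, 39 reached 1500 bp and 4 reached 2000 bp. In 812 regions (77.6%) each library had 1 peak, against 95.8% of the other shared regions. A peak of 800 bp or longer was present in both libraries in 390 regions (37.2%), in replicate 1 alone in 193 and in replicate 2 alone in 284. In the remaining 180 (17.2%) no single peak was that long, and the length came from merging. Replicate 1 alone had 585 peaks of this length outside the interval left out, and replicate 2 alone had 674.

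The broad regions had higher folds than the other shared regions, with overlap. Fold is the authors' ratio of the summit pileup plus 1 to the control level plus 1, and the pileup is the number of fragments stacked at a position. The median fold was 15.3 in replicate 1 and 23.5 in replicate 2, against 6.50 and 9.02 in the other shared regions. The median summit pileup was 47 and 52 fragments, against 19 and 20. Of the 100 shared regions with the largest smaller fold of both libraries, 96 were broad, of the first 500, 347 were, and of the first 1047, 572 (54.6%) were. The smaller fold of the broad regions went down to 4.22, and the median of the others was 6.17. Across all shared regions, length and smaller fold had a Spearman rho of 0.73 (n = 10963), and within the broad regions the rho was 0.24 (n = 1047); length and fold share the pileup behind them, so no p is given. The libraries ranked the broad regions alike by fold (rho 0.91). For the width of the widest peak the rho was 0.33, against 0.74 over all shared regions. The rule cut the range of lengths and widths. The rhos of length or width within the broad regions therefore cannot be set against those over all shared regions. Replicate 2 had the larger fold in 1015 of 1047 broad regions (96.9%) and in 8549 of 9916 other shared regions (86.2%). A larger fold in replicate 2 was thus not particular to broad regions. The summit fragments were higher in replicate 2 in 670 of the 1047 broad regions. The control level was lower in replicate 2, at 1.22 against 2.08 fragments at most summits.

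**Figure D1:**
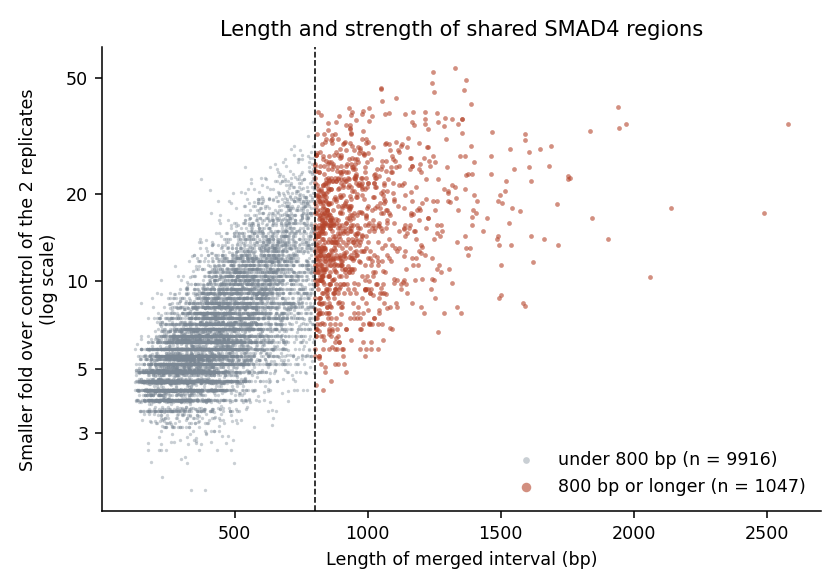
Length of each shared SMAD4 region in bp (x axis) against the smaller of its 2 folds over control (y axis, log scale), with broad regions in red and the others in grey. The dashed line is the 800-bp limit that chose the broad regions, whose folds reached from 4.22 to 54.0.

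**Figure D2:**
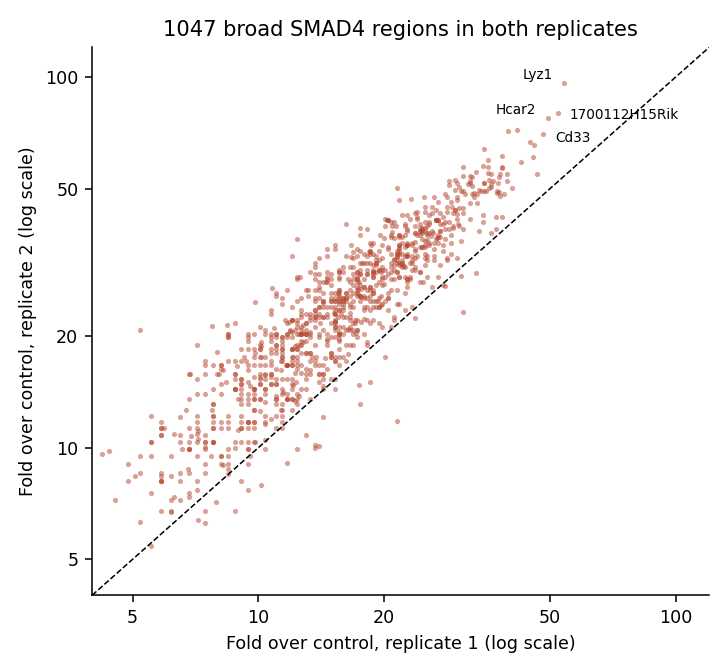
Fold over control of the 1047 broad regions in replicate 1 (x axis) and replicate 2 (y axis), both on log scales, each point being 1 region. Most points lie above the dashed line of equal fold, and the 4 regions with the largest smaller fold are named by nearest gene.

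The limit cut a continuous range of lengths. The 4 shortest members, near Ahctf1, Adgrl3, Nucb2 and Rasgef1b, all measured 800 bp, with folds in replicate 1 from 13.97 to 25.3. The 4 longest regions outside, near Slc38a2, Strn3, 3300002A11Rik and Lrrfip1, all measured 799 bp, with folds in replicate 1 from 10.7 to 12.7. The median fold in replicate 1 was 11.9 among the 690 shared regions of 700 to 800 bp and 14.5 among the 687 of 800 to 1000 bp. The 5 weakest members, all under 5-fold in replicate 1, reached 800 bp in replicate 2 only. The region at the promoter of Adgre1, which encodes the macrophage surface protein F4/80, had a peak of 861 bp and 7.22-fold in replicate 2, and a peak of 185 bp and 4.55-fold in replicate 1. The control level stood at 3 times the background or more in 2 of the 1047, near Il10rb and Serpine2.

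The strongest broad region lay 9122 bp upstream of Lyz1, which encodes a lysozyme, at chr10:117301315-117302642. Its fold was 54.0 in replicate 1 and 96.1 in replicate 2, on 180 and 212 fragments at the summit. Next came an intron of the long noncoding RNA 1700112H15Rik (52.3 and 79.9), a region 33107 bp from Hcar2, a receptor for niacin and hydroxybutyrate (49.4 and 77.6), and a region 13009 bp upstream of Cd33, a sialic acid-binding receptor of myeloid cells (48.1 and 69.9). The region 5173 bp upstream of Chil3, the chitinase-like protein Ym1 that AMs make in quantity, had 45.8-fold and 65.4-fold. Its summit window was 92.5% repeat sequence. These 5 regions measured 1051 to 1371 bp and lay outside promoters. The others among the first 12 lay nearest to 2810029C07Rik, Gda, Nt5c2, Smn1, Rhob, Cbwd1 and Clvs1, with folds in replicate 1 from 39.7 to 46.4.

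The longest region spanned 2582 bp at chr11:21222740-21225321, 15207 bp upstream of Vps54, with folds of 34.8 and 49.2. Its replicate 1 signal was called as 2 peaks and its replicate 2 signal as 1. The second in length, 2490 bp, covered the promoter of Arrdc3, with folds of 17.2 and 34.3 and a summit window of 73.5% GC. Regions near Ccdc80 (2141 bp), in Nedd9 (2063 bp), near Map3k7cl (1971 bp), at a Pparg promoter (1945 bp), near Clvs1 (1942 bp) and in D630023F18Rik (1904 bp) followed.

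Among the 47 broad regions in promoters, the strongest was at a promoter of Pparg, the nuclear receptor needed for AM development. The region, chr6:115420553-115422497, had its mean summit 251 bp upstream of a transcription start site (TSS), with 33.8-fold in replicate 1 and 49.6-fold in replicate 2. The mean summit also lay within another Pparg transcript, one that starts further upstream. A second broad region lay in an intron of Pparg, chr6:115423954-115425099, with 28.9-fold and 37.4-fold. Of 11 shared regions nearest to Pparg, these were the 2 broad ones. The other leading promoters were those of Hal, a histidine-degrading enzyme (32.2 and 52.3), Snx27, a sorting nexin (30.5 and 49.2), the chemokine gene Ccl6 (33.1 and 29.6), the splicing regulator Mbnl1 (29.2 and 39.7) and Sirpa, the receptor for CD47 (22.7 and 32.9). Of these, Ccl6 alone had the larger fold in replicate 1.

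In the shared regions, the broad ones lay less often in promoters and more often in intergenic sequence than the others, and both calls were lost in the replicate 1 list alone. Each mean summit was assigned to 1 of 5 features of curated RefSeq transcripts. Promoters (1 kb upstream to 100 bp downstream of a TSS) held 47 broad regions, or 4.49% (95% exact binomial interval 3.32 to 5.92%), and 6.63% of the others (log2 odds ratio -0.59 ± 0.22 SE, adjusted p = 0.0148, n = 10963 regions). Intergenic sequence held 478, or 45.7% (42.6 to 48.7%), against 39.9% (log2 odds ratio 0.34 ± 0.09 SE, adjusted p = 0.00207, n = 10963). A TSS more than 100 kb away was found for 119, or 11.4% (9.51 to 13.4%), against 8.97% (0.38 ± 0.15 SE, adjusted p = 0.026, n = 10963). Introns held 46.8% against 49.6%, exons 2.10% against 2.53% and transcription termination sites 0.955% against 1.33%, and none of these differences passed (adjusted p = 0.128 to 0.384, n = 10963). The median distance to the nearest TSS was 21906 bp against 17736 bp. The test was a logistic regression across all shared regions, with a two-sided likelihood ratio test and Benjamini-Hochberg adjustment over the 6 measures; it treats regions as independent and measures no spread between mice. With the smaller fold as a covariate none of the 6 passed. The promoter log2 odds ratio was then -0.03 (adjusted p = 0.892, n = 10963), while those of intergenic sequence (0.26) and of a TSS over 100 kb away (0.42) stayed close to the values above (adjusted p = 0.0622 for each, n = 10963). In the replicate 1 list alone (n = 16368 peaks), the log2 odds ratio was -0.66 for promoters (adjusted p = 0.09997) and 0.12 for intergenic sequence (adjusted p = 0.651). In the replicate 2 list alone (n = 19014 peaks) it was -1.08 for promoters (adjusted p = 0.000137) and 0.36 for intergenic sequence (adjusted p = 0.00424). In the replicate 1 list, a TSS over 100 kb away was less frequent among broad peaks than among the others (log2 odds ratio -0.54, adjusted p = 0.0101, n = 16368), and in the replicate 2 list alone the value was 0.14 (adjusted p = 0.572).

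Sequence was read at the summits. The 14 strings were searched on both strands, and all but the CTCF motif are ones that macrophage or SMAD factors recognise. The strings included TTRYRYAA for C/EBP (R is A or G, Y is C or T), GAGGAAGT for PU.1, CAGGAAGT for other ETS factors such as ELF5, and TGASTCA (S is C or G) for AP-1. TGTGGTY stood for RUNX, TTCYNRGAA for STAT5, CACGTG for E-box factors and AGGTCA for nuclear receptors. GTCTGG, the palindrome GTCTAGAC and GGCGC stood for SMADs, and GTGGGAA for RBPJ. The direct repeat DR1 of PPAR-RXR and the CTCF motif were searched by their consensus. AGGTCA can lie within DR1, and no other of these strings lies within another. The 200 bp around the mean summit were compared with 200 bp centred 2 kb to the lower coordinate in the same 1047 regions, by a two-sided exact McNemar test with Benjamini-Hochberg adjustment over the 14. A match is a description of the letters and does not show that a factor was bound.

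The C/EBP string was the most frequent in the summit windows. It stood in 290 summit windows, 27.7% (95% exact interval 25.01 to 30.5%), and in 56 flanks, 5.35%, a ratio of 5.18 (adjusted p = 1.31e-43). The same string was present in 3.67% of 200-bp windows of 32851 RefSeq promoters. It is the string in capitals in the Lyz1, 1700112H15Rik and Chil3 windows shown above. Over the whole length of the regions, 512 of 1047 (48.9%) held at least 1 and 166 (15.9%) at least 2, against 40 (3.82%) flanks of equal length with at least 2.

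The ETS strings were rarer. The PU.1 string was in 76 windows, 7.26% (5.76 to 9.002%), against 1.53% of flanks (ratio 4.75, exact McNemar adjusted p = 6.42e-10), and in 2.06% of promoter windows. The string CAGGAAGT was in 47 windows, 4.49%, against 1.05% of flanks (ratio 4.27). The AP-1 string was in 8.21% against 3.82% (ratio 2.15) and the RUNX string in 15.2% against 8.12% (ratio 1.87), and all of these passed the same test. Combinations were counted over whole regions and flanks of equal length, not in the 200-bp windows. A C/EBP string and either ETS string stood together somewhere in 137 broad regions (13.1%) and in 29 such flanks (2.77%). None of the C/EBP, ETS, AP-1 or RUNX strings was found in 147 whole regions (14.04%) and in 374 such flanks (35.7%).

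Of the SMAD strings, GTCTGG and GGCGC had smaller ratios than the C/EBP, ETS, AP-1 and RUNX strings, and the palindrome was rare. GTCTGG was in 131 windows, 12.5% (10.6 to 14.7%), against 92 flanks, 8.79% (ratio 1.42, exact McNemar adjusted p = 0.0148), and in 12.2% of promoter windows. In the same exact test it did not pass with flanks 5 kb away (adjusted p = 0.372) or with the replicate 1 summits alone (adjusted p = 0.138). The palindrome GTCTAGAC was in 8 windows and 2 flanks, a ratio of 4 on few matches (exact McNemar adjusted p = 0.186). It was present 100 bp from the mean summit of the longest region, near Vps54. GGCGC was in 5.25% against 3.92% (exact McNemar adjusted p = 0.225) and in 29.6% of promoter windows. AGGTCA was in 15.1% against 11.7% (ratio 1.295, exact McNemar adjusted p = 0.0416). It did not pass the same exact test with flanks on the other side (adjusted p = 0.0615) or 5 kb away (0.0552), with the replicate 1 summits alone (0.0615), with summits within 100 bp of each other (0.051) or at a length limit of 1000 bp (0.857). At that limit GTCTGG did not pass either (exact McNemar adjusted p = 0.727). The STAT5, E-box, RBPJ and DR1 strings did not pass (exact McNemar adjusted p = 0.186 to 0.976). The CTCF motif was in 0 of 1047 windows, which allows a share of up to 0.287% (3 counts in 1047).

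**Figure D3:**
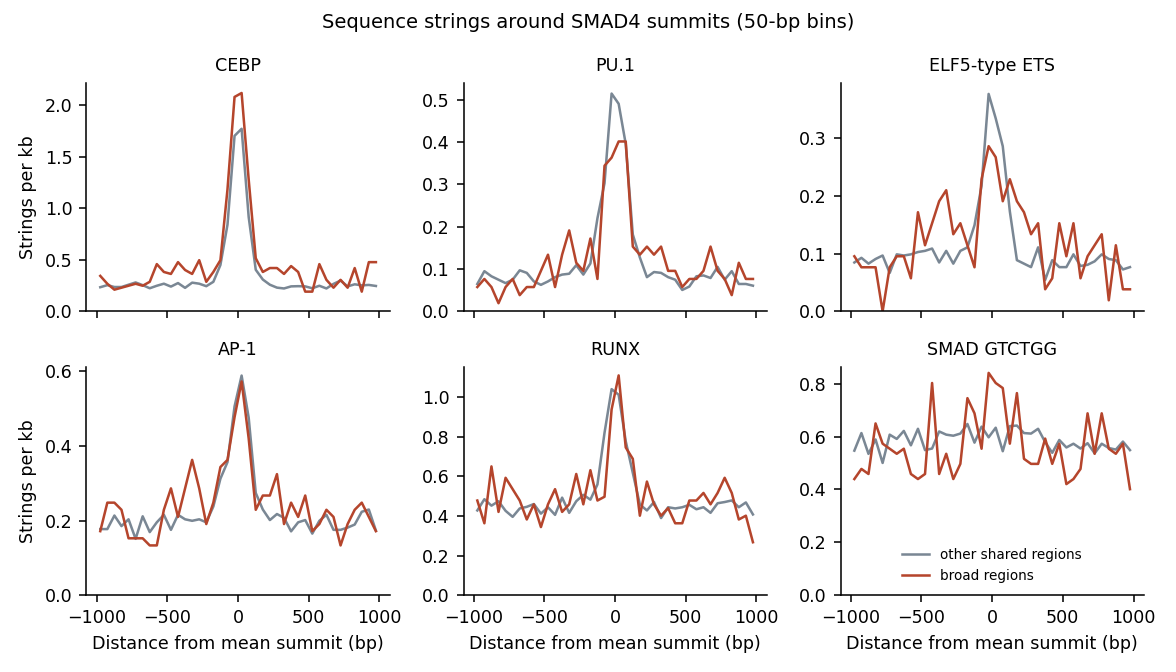
Strings per kb in 50-bp bins (y axis) by distance from the mean summit in bp (x axis), for 6 strings, in broad regions (red) and other shared regions (grey). C/EBP strings peak at the summit in both sets, and the y axes differ between panels.

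The broad regions differed from the other shared regions in 1 of the 14 strings, and that difference depended on peak strength. C/EBP strings were in 27.7% of broad windows and 23.1% of the others (log2 odds ratio 0.35 ± 0.11 SE, adjusted p = 0.0155, logistic regression, n = 10963 regions). The log2 odds ratio was larger in either peak list alone, at 0.79 without replicate 1 and 0.71 without replicate 2. These fits set peaks of 800 bp or longer against all other peaks of that list, shared or not. They are therefore not like for like with the value over shared regions. For the 13 others the adjusted p was 0.221 to 0.945 (n = 10963). With the smaller fold as a covariate the C/EBP difference turned to -0.38 ± 0.12 SE (adjusted p = 0.0259, n = 10963). Where the summits of both libraries lay within 100 bp of each other, the value with this covariate was -0.26 and did not pass (adjusted p = 0.406, n = 831 broad regions and 7717 others). Among regions with a smaller fold of 8 to 12, 31 of 217 broad windows (14.3%, 9.92 to 19.7%) held the string, against 517 of 1952 others (26.5%, 24.5 to 28.5%). At 12 to 16 the shares were 20.2% of 248 and 30.1% of 661. At 16 to 24 they were 34.6% of 286 and 34.97% of 306. Of the 192 broad regions at 24-fold or more, 87 (45.3%, 38.1 to 52.6%) held it, against 10 of 29 others (34.5%, 17.9 to 54.3%). Under 8-fold the shares were 22.1% of 104 and 21.0% of 6968. The share was thus lower in broad regions at 8 to 12-fold and at 12 to 16-fold, and higher over all folds. In the other bins the intervals overlapped, and the share in broad regions was not clearly lower.

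**Figure D4:**
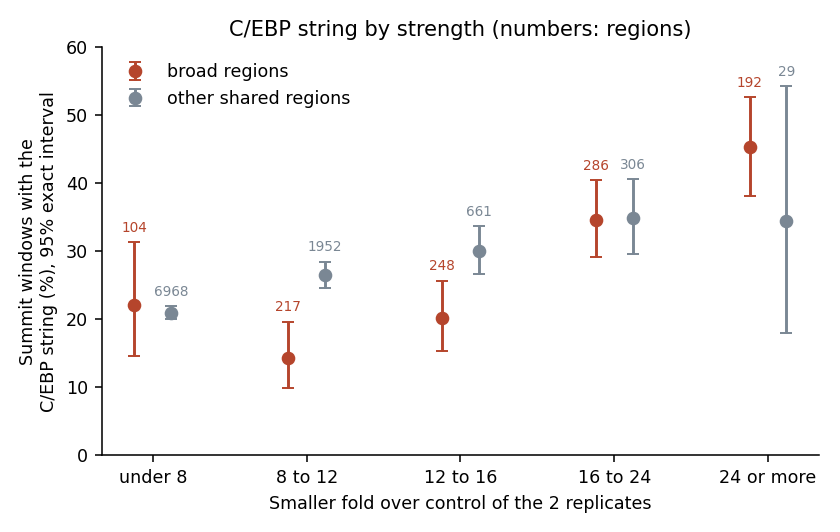
Share of summit windows with the C/EBP string (y axis, percent, with 95% exact binomial intervals) by smaller fold over control (x axis), for broad regions (red) and other shared regions (grey), with the number of regions above each point. The intervals of both sets do not overlap at 8 to 12-fold and at 12 to 16-fold, and do at the other bins.

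The PU.1 string followed another course within the broad regions. It stood in 8.65% of windows under 8-fold, 10.1% at 8 to 12-fold, 8.87% at 12 to 16-fold and 6.99% at 16 to 24-fold. At 24-fold or more it stood in 1.56% (3 of 192, 0.325 to 4.50%). In the other shared regions the shares in the same order were 8.02%, 8.30%, 8.17%, 7.52% and 3.45% (1 of 29). GTCTGG was in 14.3% at 8 to 12-fold and 8.85% at 24-fold or more, with overlapping intervals.

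Away from the summit, C/EBP strings were denser in broad regions than at the same distance in the other shared regions, and for the ETS strings the order depended on the distance. These differences were not tested. The other shared regions had a median length of 417 bp, so positions 200 to 400 bp from the summit often lay outside them. In broad regions such positions more often lay inside, because the rule kept longer regions. At 200 to 400 bp from the mean summit, C/EBP strings numbered 0.396 per kb in broad regions and 0.247 per kb in the others. PU.1 strings numbered 0.134 and 0.0892 per kb, and CAGGAAGT 0.150 and 0.0882 per kb. AP-1 strings numbered 0.270 and 0.2002 per kb. RUNX strings were at 0.478 and 0.452 per kb, and GTCTGG at 0.501 and 0.609 per kb. Nearer the summit, at 100 to 200 bp, the values in broad and other regions were 0.444 and 0.361 per kb for C/EBP, 0.134 and 0.161 per kb for PU.1, and 0.148 and 0.131 per kb for CAGGAAGT. At 600 to 1000 bp they were 0.296 and 0.251 per kb for C/EBP, 0.0728 and 0.0797 per kb for PU.1, and 0.0764 and 0.0865 per kb for CAGGAAGT.

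Gene lists were set beside the genes nearest to broad regions. The lists were chosen with earlier results of these data known, so their counts are a description. In all, 873 genes were nearest to a broad region, and 697 of 20923 protein-coding genes, 3.33%, were. The share is given beside each list as a count without a test. Any shared region, broad or not, was nearest to 4492 protein-coding genes (21.5%). Such a region was nearest to 25 of 28 AM markers, 23 of 32 lipid genes, 30 of 46 transcription factor genes and 19 of 42 TGFβ pathway genes. For innate receptors this was 35 of 41, for lysosome and defence genes 23 of 28, for the GM-CSF axis 5 of 15 and for other lineages 3 of 27. High shares were thus not particular to broad regions. A nearest gene is a matter of distance, and large gene-poor intervals give a gene more regions.

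Of 28 AM marker genes, 9 (32.1%) had a broad region, and they were Chil3, Tlr2, Pparg, Car4, Cd9, Atp6v0d2, Flt1, Fabp5 and Plet1. The Tlr2 region, for a receptor of bacterial lipoproteins, had 38.3-fold and 42.0-fold. Car4, a carbonic anhydrase, had 30.9-fold and 42.9-fold in an intron of its neighbour Usp32. Fabp5, a fatty acid-binding protein, had 12.3-fold and 28.9-fold at 54392 bp upstream.

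Of 32 lipid genes, 9 (28.1%) had one. Cd36, the scavenger receptor for oxidised lipids, had 3 broad regions, all within introns and within 6402 bp of a TSS, with 37.4-fold, 13.1-fold and 7.80-fold in replicate 1 and 48.7-fold, 25.7-fold and 12.2-fold in replicate 2. Plin2, which coats lipid droplets, had 30.2-fold and 50.5-fold. The cholesterol exporters Abca1 (22.1 and 35.7) and Abcg1 (10.4 and 15.7) and the cholesterol esterifying enzyme Soat1 (20.8 and 29.8) each had 1.

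Of 46 transcription factor genes, 14 (30.4%) had one. After Pparg came Klf6 (27.3 and 42.9), with 3 broad regions, Klf4 (25.02 and 43.1, at 427718 bp), Egr2 (24.05 and 32.9), Irf8 (23.1 and 41.5, in its intron) and Zeb2 (22.1 and 32.0, at 162206 bp upstream). Runx1 and Runx2, Batf, Tfec, Myc, Fosl2, Hhex and Nfe2l2 were the others. Spi1, which encodes PU.1, and the C/EBP genes were not among them.

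Of 42 genes of the TGFβ and SMAD pathway, 6 (14.3%) had one. Ski, a corepressor that binds SMADs, had 20.5-fold and 34.3-fold in its intron at chr4:155216557-155217859. Itgb8, an integrin chain that activates latent TGFβ, had 15.6-fold and 18.5-fold. Id1, a classical BMP and SMAD target, had 14.6-fold and 32.9-fold. The receptor-activated SMAD gene Smad2 (7.98 and 18.1) and the corepressor gene Tgif1 (7.80 and 10.4, at its promoter) had weaker ones. Of these 5 genes, Ski had 2 shared regions, and for the others the broad region was the only one.

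Of 41 innate receptor genes, 16 (39.0%) had one, the largest share of the lists. After Hcar2, Cd33 and Tlr2 came Cd300a (30.1 and 40.2), the formyl peptide receptor Fpr2 (28.6 and 38.8) and Tlr4, the receptor for lipopolysaccharide (24.4 and 28.0). Clec7a, Clec4d, Clec4n and Clec5a, which encode C-type lectins, were also among them. Of 28 genes of lysosomes and secreted defence proteins, 3 had one (10.7%): Lyz1, Chil3 and Mmp12, a macrophage elastase (6.50 and 10.8). None of 15 genes of the GM-CSF and STAT5 axis had one. Of 27 genes of other lineages, 1 (3.70%) had one, Alb, with 9.42-fold and 11.3-fold at 46077 bp. When a gene was counted for a broad region within 10 kb of its body, the counts were 4 AM markers, 5 lipid genes, 10 transcription factor genes, 14 innate receptor genes and 8 TGFβ pathway genes, beside 654 protein-coding genes (3.13%) in all.

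**Figure D5:**
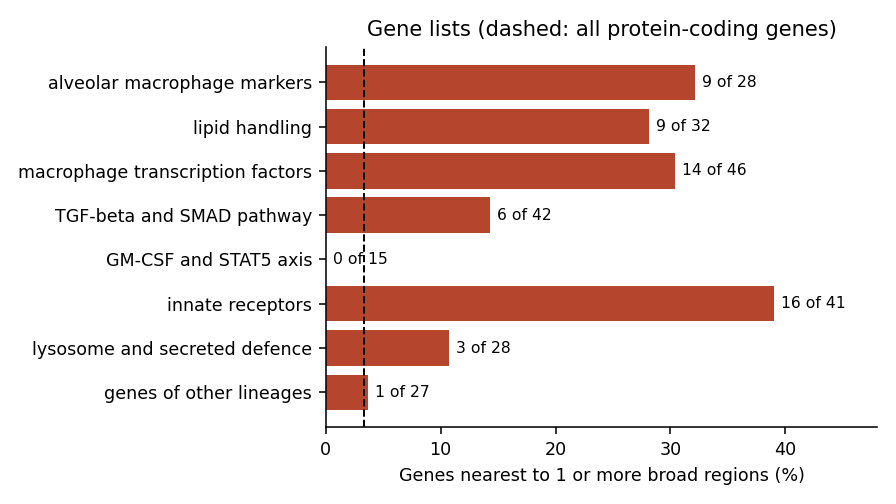
Percent of each list's annotated genes that were nearest to 1 or more broad regions (x axis), with the counts beside the bars and the 3.33% of all protein-coding genes as a dashed line. The innate receptor list has the longest bar, 16 of 41, and the GM-CSF and STAT5 list has 0 of 15.

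Most genes nearest to a broad region had a single one. Of the 873, 747 (85.6%) had 1, 126 had 2 or more and 27 had 3 or more. Another broad summit lay within 50 kb for 307 of 1047 (29.3%), and the median distance to the next one was 228856 bp; the spacing was not compared with that of other regions. Trps1, a GATA-type repressor, had 10, of 24 shared regions, spread over 506230 bp on chromosome 15. Of these, 7 lay in its introns and 3 downstream of it, and the folds in replicate 1 ran from 7.15 to 37.7. Nedd9, a scaffold protein of focal adhesions, had 7 of 17 over 174106 bp, of which 6 were intronic. Zfp608, a zinc finger gene, had 6 of 24. Pag1, Ccl6, Atp2b1, Pid1, Cd44 and the long noncoding RNAs 1700112H15Rik and Gm1653 had 4 each. Cd44, the hyaluronan receptor, had its 4 over 109962 bp with folds in replicate 1 from 10.1 to 16.6. Klf6, Trib1, Sgms1, Cd47 and Cd93 were among the 17 genes with 3.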

How the data were processed

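SMAD4 HT-ChIPmentation libraries (n = 2) and inputs (n = 2) were sequenced, and reads were trimmed with Cutadapt, aligned to mm10 with Bowtie2 and filtered with SAMtools. The authors called peaks with MACS3 in each sample against input at a q-value limit of 0.05. The deposited lists held 16369 and 19015 peaks, each with a fold ratio, a −log10 p, a −log10 q and a score (10 times the −log10 q, not used). The antibody supplier differs between the series text and the study's methods. Sequencing totals were not used here. Pileups and control levels were solved from fold and p, within 0.00054 in −log10 p, and are the depth behind each fold; exact binomial intervals cover counting error only.

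Regions were merged in Python 3.11.15 and tested with scipy 1.17.1 and statsmodels 0.14.6. Gene models were 45756 curated RefSeq transcripts of GRCm38, which mm10 names, and coordinates are 1-based. The nearest gene has the closest TSS. Adjusted p-values under 0.05 were taken as passing. Of the list genes, Clec6a had no match in the annotation. The values of 1 listed gene are not reported here. Named regions were the 12 with the largest smaller fold, the 8 longest, the 6 strongest in promoters, the 5 weakest, those on either side of the limit, genes with 3 or more regions and up to 6 genes of a list with values. Members, lists and strings were chosen with earlier results of these data known. Tests were checked on data with known answers. Peaks are not expression, so the cell type was not checked beyond the marker genes listed. Alternatives changed the length limit, peak filters, overlap, windows, flanks, covariates and libraries.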

Additional observations from a re-analysis of the deposited data

How the results depend on the processing

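The number of broad regions, 1047, was 1737 at a limit of 700 bp, 360 at 1000 bp and 350 when a single peak of 800 bp or longer was required in each library. It was 674 without replicate 1 and 585 without replicate 2, and from 923 to 1030 under the other peak filters and a reciprocal overlap. No paired analysis was possible because the inputs have no values here and replicate numbers follow accession order. With 2 libraries no spread between mice could be estimated, and pileups of weak peaks rest on few fragments.

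Of the 6 position measures 3 passed, 0 with the smaller fold as a covariate, and 1 to 2 without a replicate. Without a replicate, broad peaks were compared with all other peaks of the remaining list, shared or not. Without a replicate, log2 odds ratios spanned -0.59 to 0.046 for exons and -0.052 to 0.00052 for introns, and -0.54 to 0.14 for a TSS over 100 kb away, each turning sign in the replicate 1 list alone. At a limit of 1000 bp, 2 of the strings passed against flanks in place of 7 (from 5 to 8 without a replicate), 0 in place of 1 passed against other shared regions (1 without either replicate), and 27 in place of 53 listed genes had a broad region. With the smaller fold as a covariate and summits within 100 bp of each other, an alternative chosen after seeing the data, also 0 strings passed.

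Reversed log2 odds ratios of strings against other shared regions were, with the smaller fold, C/EBP -0.38 and PU.1 0.00025, and without promoters AGGTCA 0.011. With windows of 200 bp each side they were AGGTCA 0.018, GGCGC -0.21 and RBPJ -0.16, and at 1000 bp GGCGC -0.15. Without a replicate, the values were -0.022 to 0.011 for AP-1, 0.24 to 0.35 for RUNX, 0.043 to 0.37 for AGGTCA, -0.051 to 0.28 for RBPJ, -0.56 to 0.049 for CAGGAAGT and -0.67 to 0.011 for DR1. With summits within 100 bp they were AGGTCA 0.043 and RBPJ -0.037, and with the smaller fold as well C/EBP -0.26, AGGTCA 0.11 and GTCTAGAC -0.32. In regions with 1 peak in each library, also chosen after seeing the data, DR1 was -0.21. Reversed log2 ratios of summit to flank were STAT5 -0.038 and RBPJ -0.032 with the flank at the higher coordinate, STAT5 -0.038 and E-box 0.10 at 5 kb, DR1 -0.39 with windows of 200 bp each side and STAT5 -0.14 with summits within 100 bp. Of these, C/EBP and the TSS distance had passed in the comparison as reported, and the cause was not tested. C/EBP and PU.1 passed against flanks under every alternative run. Of 328 values under alternatives, 268 kept their direction and side of the threshold, or moved little where they were counts.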

Other observations

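The X chromosome held few broad regions. Of its 178 shared regions, 5 were broad, 2.81% (95% exact interval 0.918 to 6.43%), against 1042 of 10785 on the autosomes, 9.66% (9.11 to 10.2%), and from 6.32% to 12.3% on single autosomes. The median fold of shared regions was 6.82 on X and 6.82 on autosomes in replicate 1, and 9.02 and 9.48 in replicate 2. A smaller fold of 16 or more was reached by 6 X regions (3.37%) and by 807 autosomal ones (7.48%). The sex of the mice was not among the labels used here, and this difference was not tested.

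Soft-masked (repeat) sequence made up 11.0 ± 14.1% (SD over 1047 regions) of the broad summit windows and 26.0 ± 27.9% of their flanks, against 13.0 ± 17.1% and 26.7 ± 28.7% in the other shared regions (n = 9916). GC content was 43.3 ± 6.19% in broad windows and 43.8 ± 6.53% in the others. Of the 47 broad promoter windows, 17 (36.2%) held 5 or more CpG.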
